A study of Mus musculus with 4 samples.

Results

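Tendon factors, thrombospondins, tenascins and periostin are described here in CD51+;CD200+ skeletal stem/progenitor cells of the mouse. The 10 genes are *Scx*, *Mkx*, *Tnmd*, *Thbs1*, *Thbs2*, *Thbs3*, *Thbs4*, *Tnc*, *Tnn*, and *Postn*. They were taken by gene symbol, and all 10 were found among 23946 symbols in the files. The cells came from wild-type CD-1 mice at postnatal day 3. They were sorted by FACS from 3 sutures of the skull: posterior frontal, written PF, sagittal, written SAG, and coronal, written COR. The growth plate of the tibia, GP, served as the reference. PF is the suture that later fuses, whereas SAG and COR stay patent. Each tissue was pooled from many animals and gave 1 library of total RNA, so there is no replicate error and no test between tissues. The dissected suture complex held bone fronts, suture mesenchyme, dura mater, and periosteum. Cells were kept if positive for CD51 and CD200 and negative for CD105, 6C3, Thy1.1, Thy1.2, Tie2, Ter119, and CD45.

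Tendons, ligaments, and the periosteum that covers bone share a set of genes. Scleraxis (*Scx*) and Mohawk (*Mkx*) are transcription factors of tendon cells, and tenomodulin (*Tnmd*) is a membrane protein of mature tendon that is known to depend on scleraxis. Thrombospondins, tenascins, and periostin are matricellular proteins: they are secreted into the matrix, bind collagen, growth factors, and integrins, and tune adhesion more than they carry load. Periostin takes its name from periosteum, and tenascin-W (*Tnn*) is known from periosteum and bone-forming tissue.

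The unit is FPKM, fragments scaled to transcript length and to library size, which allows levels of different genes to be compared. How library size was set for these values is not given. FPKM of 1 or more was listed for between 11402 and 12263 genes per library. The files give no fragment counts. A relative depth was estimated from the most common low value of FPKM times the length of the longest coding transcript. This value was taken as 1 fragment in each library. By this estimate PF had 44.7% of the depth of SAG, COR 91.2%, and GP 85.1%. The positive sorting markers *Itgav* and *Cd200* were above 1 FPKM in every library. Of the 5 genes for antigens sorted as negative, *Ptprc*, *Tek*, and *Thy1* were below 1 FPKM throughout, whereas *Enpep* was above 1 FPKM in all libraries and *Eng* in PF and COR. Markers of other cells differed between the libraries. The 7 choroid plexus markers summed to 5347 FPKM in SAG, against 483 in PF, 147 in COR, and 10.9 in GP. The 9 chondrocyte markers summed to 4089 FPKM in SAG, against 2792 in GP, 249 in PF, and 195 in COR. Of these 9, 5 were highest in SAG and 4 in GP. PF had the highest sums of smooth muscle and pericyte (785 FPKM), Schwann cell and glia (166, with GP at 165), and leukocyte markers (34.5). PF was highest for 2 of 5, 2 of 5, and 3 of 5 of their genes. Their part in the values below was not tested. In sorted bulk RNA, fewer cells of a type and less RNA per cell cannot be told apart.

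All 10 genes were above 10 FPKM in every library except *Thbs4*, which reached that level only in GP. *Postn* had the highest level of the 10 in COR, where it ranked 7 among all genes, and in SAG. *Tnmd* led in GP, with rank 24 against 27 for *Postn*, and *Thbs2* led in PF. Between the highest and lowest library, 8 of the 10 genes differed by 3-fold or more on the log2(FPKM + 1) scale, compared with 24.7% of all 13998 genes that reached 1 FPKM somewhere. *Mkx* and *Thbs1* were the exceptions. Without the SAG library 5 of the 10 did so, compared with 16.7% of all genes. The genes that then no longer passed were *Scx*, *Thbs2*, and *Thbs3*, each of which had its lowest value in SAG. The sum of the 7 osteoblast markers was lowest in SAG too, at 887 FPKM against 2853 to 12255 elsewhere. Of these 7, 6 were lowest in SAG and 1 in PF. The sum of the 5 smooth muscle and pericyte markers was also lowest in SAG, at 65.4 FPKM against 320 to 785 elsewhere. Of these 5, *Acta2*, *Tagln*, and *Myh11* were lowest in SAG, *Cspg4* in PF, and *Rgs5* in COR. The part of either list in these values was not tested. The libraries were not ordered alike by all genes. GP was highest for *Scx*, *Mkx*, *Tnmd*, *Thbs3*, and *Thbs4*, COR for *Thbs2*, *Tnc*, *Tnn*, and *Postn*, and SAG for *Thbs1*. When levels were taken relative to *Gapdh*, PF came first for *Mkx* and *Thbs2*, with log2 ratios of 0.26 over GP and 0.03 over COR.

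**Figure D1:**
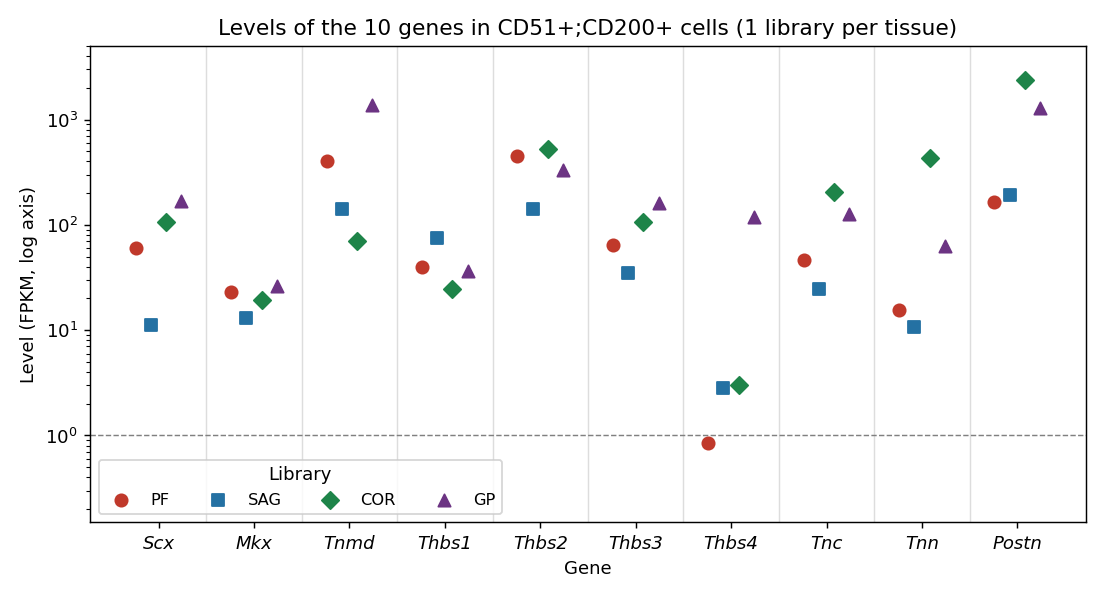
Level of each of the 10 genes in FPKM (log axis) in the PF, SAG, COR, and GP libraries, 1 point per library; the dashed line is at 1 FPKM. *Thbs4* lies at 120 FPKM in GP and no higher than 3.01 FPKM in the sutures, and *Tnn* and *Postn* are highest in COR, at 431 and 2358 FPKM.

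Among the tendon factors, *Scx* (mm9 chromosome 15, 76287868 to 76289898, 2 exons in the longest coding transcript) was listed at 168 FPKM in GP, against 107 in COR, 60.2 in PF, and 11.3 in SAG. GP was 1.57 times COR, COR 1.78 times PF, and PF 5.33 times SAG, so the one wide gap in this order lay above SAG. *Scx* overlaps *Bop1*, a ribosome biogenesis gene on the opposite strand, which was at 45.2, 19.9, 40.3, and 30.6 FPKM in PF, SAG, COR, and GP. Reads of both genes cannot be told apart by strand with this type of library. *Bop1*, like *Scx*, was lowest in SAG, and the part of shared reads was not tested.

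*Mkx* (chromosome 18, 6934964 to 7004777, 7 exons) had the narrowest range of the 10 genes. It was at 26.3 FPKM in GP, followed by PF with 23.0, COR with 19.2, and SAG with 13.1, a span of 2.02 times. Neighbours in this order differed by 1.14 to 1.47 times. In all 6 comparisons *Mkx* stayed below 3-fold.

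*Tnmd* (chromosome X, 130385519 to 130400116, 7 exons) was at 1379 FPKM in GP, against 401 in PF, 142 in SAG, and 69.6 in COR. Here COR was lowest of all, whereas for *Scx* COR was second to GP. Per unit of *Scx*, the *Tnmd* level was 6.66 in PF, 12.6 in SAG, 8.23 in GP, and 0.651 in COR. *Tnmd* thus exceeded *Scx* in 3 libraries and lay below it in COR. Sums of several marker lists were lowest in COR. The 9 chondrocyte markers summed to 195 FPKM in COR and 249 to 4089 elsewhere, with 5 of 9 lowest in COR and 4 in PF. Skeletal muscle, endothelium, and leukocyte markers summed to 5.43, 0.811, and 5.43 FPKM in COR. Of their genes, 3 of 10, 1 of 5, and 2 of 5 were lowest there. The 5 Schwann cell and glia markers summed to 38.5 FPKM in COR and 75.2 to 166 elsewhere, with 1 of 5 lowest in COR and 4 in SAG. The 6 meningeal markers summed to 64.5 FPKM in COR and 163 to 210 elsewhere, with 2 of 6 lowest in COR, 3 in GP, and 1 in SAG. Their part in the *Tnmd* values was not tested.

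The stretch before the *Tnmd* start is shown because scleraxis and other helix-loop-helix factors bind E-boxes, the letters CANNTG. The 250 bases upstream of the RefSeq start were searched on both strands for CANNTG, the TATA box TATAAA, and the TEAD motif GGAATG. Of 32851 such windows in the RefSeq promoter table, 66.2% held an E-box, 12.4% a TATAAA, and 12.6% a GGAATG or its complement. Capitals mark these motifs in every sequence below. Positions are the table's windows matched to mm9, and each sequence is written along the strand of its gene. The *Tnmd* window (chrX:130385297-130385546, plus strand) held none of the 3 motifs, which says only that these letters are not in this window. Its RefSeq start lies 28 bases from the nearest start of a coding *Tnmd* transcript in GENCODE. The end of the window therefore lies within the gene as positioned above.
Tnmd: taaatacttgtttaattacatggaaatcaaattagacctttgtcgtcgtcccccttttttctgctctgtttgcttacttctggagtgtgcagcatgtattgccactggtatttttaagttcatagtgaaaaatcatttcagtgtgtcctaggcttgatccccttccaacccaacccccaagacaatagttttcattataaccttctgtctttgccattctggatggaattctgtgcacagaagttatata

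The thrombospondins fall into trimers (*Thbs1* and *Thbs2*), which are known to be antiangiogenic, and pentamers (*Thbs3*, *Thbs4*, and the relative *Comp*). Thrombospondin-1 is also a known activator of latent TGF-β. *Thbs2* (chromosome 17, 14802507 to 14831269, 22 exons) was the most abundant of the 4 thrombospondins in every library. It was at 529 FPKM in COR, against 455 in PF, 332 in GP, and 140 in SAG. COR, PF, and GP lay within 1.16 and 1.37 times of their neighbours, and SAG lay 2.38 times below GP. Of the summed level of *Thbs1* to *Thbs4*, without *Comp*, *Thbs2* made up 81.2% in PF, 79.8% in COR, 55.5% in SAG, and 51.1% in GP.

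*Thbs1* (chromosome 2, 117937612 to 117952869, 22 exons) was the one member with its highest level in SAG. It was at 74.4 FPKM in SAG, followed by PF with 40.2, GP with 36.6, and COR with 24.8. PF and GP differed by only 1.10 times. The 4 platelet and megakaryocyte markers, cells known to be rich in thrombospondin-1, summed to between 1.53 and 2.05 FPKM in all libraries. Of these, *Itga2b* was highest in each library, at 0.715 to 1.92 FPKM, and *Ppbp* was listed at 0 in PF, SAG, and COR. The part of platelet RNA in the *Thbs1* level was not tested. Of the summed level of *Thbs1* to *Thbs4*, *Thbs1* made up 29.5% in SAG and between 3.74% and 7.17% elsewhere.

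*Thbs3* (chromosome 3, 89019102 to 89030759, 23 exons) was at 162 FPKM in GP, against 106 in COR, 64.1 in PF, and 34.9 in SAG. Its order, GP over COR over PF over SAG, was that of *Scx*, with steps of 1.52, 1.66, and 1.84 times. It overlaps *Mtx1*, a mitochondrial import gene on the opposite strand, listed at 69.8 FPKM in PF, followed by COR with 47.9, GP with 47.0, and SAG with 34.8. The low *Thbs3* value of SAG therefore coincided with a low *Mtx1* value, and the part of shared reads was not tested.

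*Thbs4* (chromosome 13, 93521545 to 93564773, 22 exons), a thrombospondin of tendon and muscle matrix, had the widest range of the 10 genes. It was at 120 FPKM in GP, against 3.01 in COR, 2.80 in SAG, and 0.840 in PF, so GP was 39.8 times the highest suture. SAG and COR differed by 1.07 times. PF was 3.34 times below SAG, in the shallowest library. By the depth estimate the PF value equalled about 46.1 steps, each step being the low value taken as 1 fragment. The part of depth in the low PF value was not tested. *Thbs4* was 18.4% of the summed *Thbs1* to *Thbs4* level in GP and at most 1.11% in a suture. The 10 skeletal muscle markers summed to 7.24 FPKM in GP and to between 5.43 and 10.9 in the sutures, with *Ckm*, *Myog*, *Myod1*, and *Pax7* listed at 0 in GP. Of the same list, *Acta1* (1.57 FPKM) and *Tnnc2* (0.992 FPKM) were highest in GP, against at most 0.222 and 0.375 in a suture, and the part of muscle RNA in the *Thbs4* level was not tested. The window before the *Thbs4* start (chr13:93564774-93565023, minus strand) is shown as that of the gene with the widest range. Its first E-box base lies at -115 from the start, and 2 TEAD motifs that share a base, at -197 and -192, read GGAATG on the opposite strand.
Thbs4: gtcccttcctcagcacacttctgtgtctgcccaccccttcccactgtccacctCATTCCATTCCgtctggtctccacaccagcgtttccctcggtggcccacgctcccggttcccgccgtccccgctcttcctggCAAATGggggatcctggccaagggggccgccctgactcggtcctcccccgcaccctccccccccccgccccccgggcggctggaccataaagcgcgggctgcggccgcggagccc

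**Figure D2:**
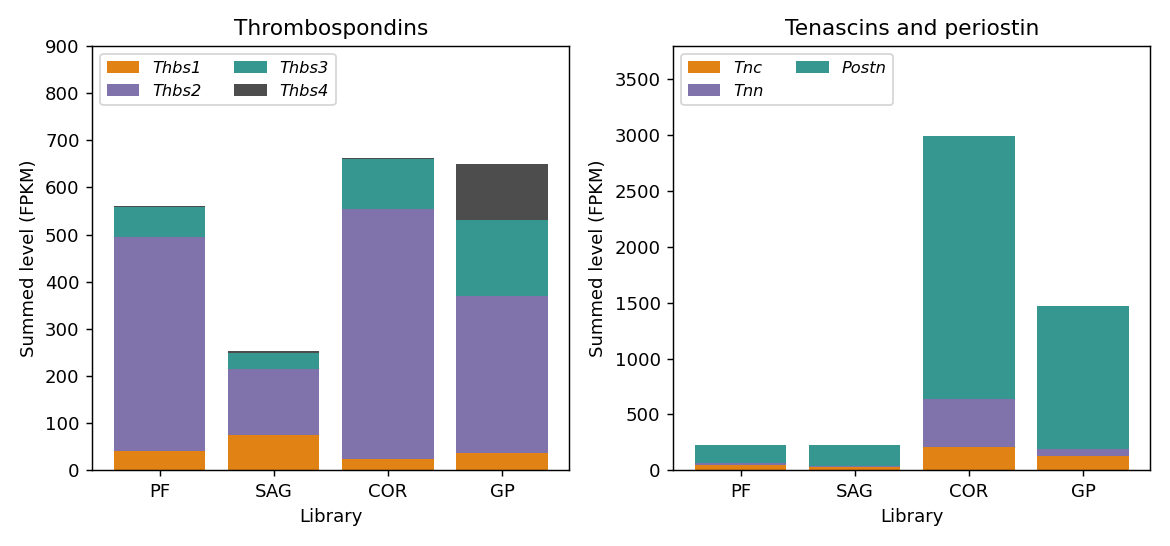
Summed FPKM per library of *Thbs1* to *Thbs4* (left) and of the tenascins with periostin (right), stacked by gene, 1 library per bar. The thrombospondin sum is lowest in SAG, at 252 FPKM, and the tenascin and periostin sum is 2994 FPKM in COR and 1475 in GP, compared with 228 in PF and 227 in SAG.

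The tenascins and periostin were all ordered with COR first and GP second, and with PF and SAG lowest. Tenascin-C (*Tnc*, chromosome 4, 63620819 to 63681760, 26 exons), a hexameric protein of tendon, periosteum, and healing tissue, was at 204 FPKM in COR, followed by GP with 128, PF with 46.4, and SAG with 24.7. It overlaps a long noncoding RNA gene on the opposite strand, not analysed here. COR was 1.60 times GP, and GP was 2.76 times PF.

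Tenascin-W (*Tnn*, chromosome 1, 162015165 to 162083711, 22 exons) had its highest level in COR by the widest step of the 3. It was at 431 FPKM in COR, against 62.7 in GP, 15.7 in PF, and 10.7 in SAG. COR was 6.88 times GP and GP was 4.0 times PF, while PF and SAG differed by 1.46 times. Its rank among all genes was 174 in COR, 1542 in GP, 4663 in PF, and 5958 in SAG. *Tnn* exceeded *Tnc* only in COR, at 2.11 times its level, and was between 0.339 and 0.491 of it in the other libraries.

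*Postn* (chromosome 3, 54165031 to 54194961, 22 exons), a fasciclin-domain protein that promotes collagen crosslinking, was at 2358 FPKM in COR, followed by GP with 1284, SAG with 191, and PF with 166. COR was 1.84 times GP, GP was 6.72 times SAG, and SAG and PF lay within 1.15 times. Periostin was most of the summed level of these 3 genes in each library, from 72.8% in PF to 87.1% in GP.

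The windows of these 3 genes are shown together because their libraries were ordered alike at the top. *Tnn* (chr1:162083707-162083956, minus strand) held 1 TEAD motif, at -160. *Tnc* (chr4:63707971-63708220, minus strand) held 2 E-boxes, at -192 and -100, and a TATAAA at -205. Its RefSeq start lies 26210 bases from the nearest start of a coding *Tnc* transcript in GENCODE. For *Tnn* this distance was 5 bases, and the end of its window lies within the gene as positioned above. *Postn* (chr3:54164779-54165028, plus strand) held a TATAAA at -26 and no E-box. No motif was common to the 3 windows.
Tnn: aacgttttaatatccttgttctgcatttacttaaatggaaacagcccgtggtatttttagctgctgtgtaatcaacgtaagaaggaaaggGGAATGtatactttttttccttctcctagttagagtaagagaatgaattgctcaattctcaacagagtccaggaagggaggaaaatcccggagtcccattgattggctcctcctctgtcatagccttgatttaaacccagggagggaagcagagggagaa
Tnc: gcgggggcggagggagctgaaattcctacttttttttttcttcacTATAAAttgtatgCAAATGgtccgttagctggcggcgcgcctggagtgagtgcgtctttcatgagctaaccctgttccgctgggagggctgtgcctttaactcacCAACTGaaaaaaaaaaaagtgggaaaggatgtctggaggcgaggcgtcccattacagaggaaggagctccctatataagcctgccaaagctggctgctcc
Postn: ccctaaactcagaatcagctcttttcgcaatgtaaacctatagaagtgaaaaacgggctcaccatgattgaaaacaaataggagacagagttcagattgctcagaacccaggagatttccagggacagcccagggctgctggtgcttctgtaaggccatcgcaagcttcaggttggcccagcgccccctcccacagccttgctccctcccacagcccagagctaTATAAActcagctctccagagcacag

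Markers of bone-forming cells were also highest in COR, in all 7 of 7 listed. GP was second for 4 of them and PF for 3, and SAG was lowest for 6. The 7 osteoblast markers summed to 12255 FPKM in COR, 8223 in GP, 2853 in PF, and 887 in SAG, and *Spp1*, osteopontin, alone made up 8324 of the COR sum and 6882 of the GP sum. *Ibsp*, bone sialoprotein, was at 1575 FPKM in COR, 761 in GP, 123 in PF, and 104 in SAG. *Sp7*, the osteoblast transcription factor osterix, was at 200 FPKM in COR, 47.3 in GP, 33.8 in PF, and 7.93 in SAG. *Bglap*, osteocalcin, was at 790 FPKM in COR, with PF at 426, GP at 159, and SAG at 67.1, so PF lay above GP, as it did for *Alpl* and *Ifitm5*. The part of these markers in the tenascin and periostin levels was not tested.

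**Figure D3:**
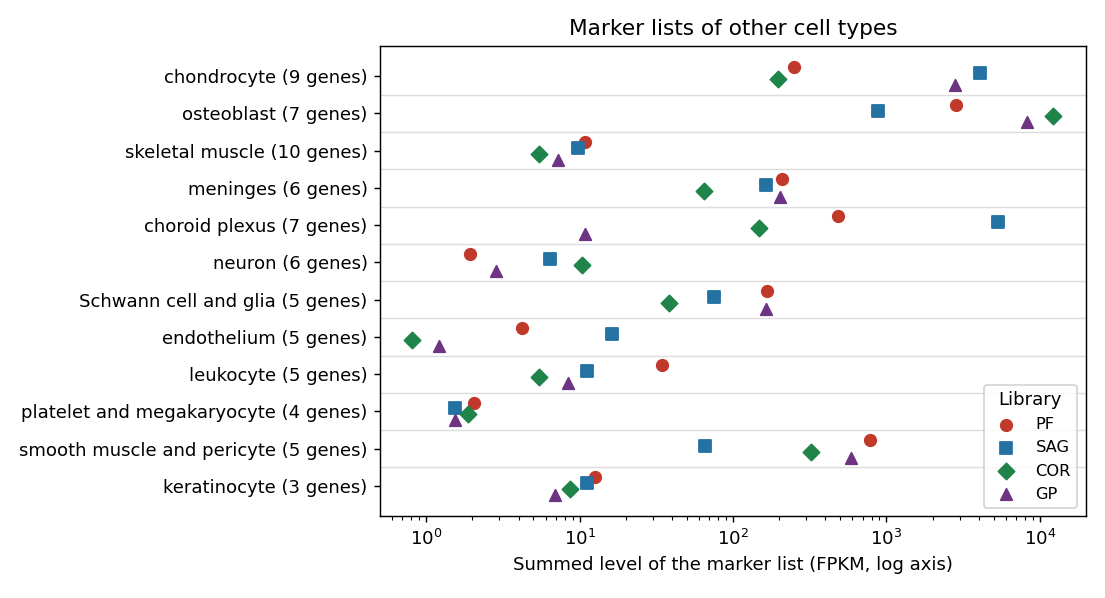
Summed FPKM (log axis) of the marker lists of other cell types, 1 point per library. The osteoblast sum is highest in COR and GP, the chondrocyte sum in SAG and GP, and the choroid plexus sum in SAG at 5347 FPKM.

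The study asked how cells of the fusing PF suture differ from those of the patent sutures. Each ratio is a difference of log2(FPKM + 1) values, where a 3-fold difference is 1.58, and a gene qualified when either library reached 1 FPKM. All 10 genes qualified in each of the 6 comparisons. Between PF and SAG, 2 of 10 genes passed 3-fold, compared with 15.7% of 13490 genes, a share close to that of all genes. *Scx* was 2.32 and *Thbs2* 1.70 higher in PF on the log2 scale. *Tnmd*, at 1.49, lay just below the threshold. The median log2 ratio of the 10 genes was 0.82, compared with 0.03 for all genes.

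Between PF and COR, 4 of 10 genes passed, compared with 11.7% of 12853 genes. *Tnn*, *Postn*, and *Tnc* were higher in COR, with log2 ratios of PF to COR of -4.69, -3.82, and -2.11. *Tnmd* was higher in PF, at 2.51. The median was -0.77, compared with 0.05 for all genes.

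Between the patent sutures COR and SAG, 5 of 10 genes passed, compared with 9.25% of 12720 genes. All 5 were higher in COR, as were 3.11% of all genes. The log2 ratios were 5.20 for *Tnn*, 3.62 for *Postn*, 3.14 for *Scx*, 2.99 for *Tnc*, and 1.91 for *Thbs2*. *Thbs3* was just short of the threshold, at 2.99-fold higher in COR, and *Thbs1* was 2.92-fold higher in SAG. The median was 1.75, compared with -0.02 for all genes. The patent sutures therefore lay on either side of PF for *Tnc* and *Tnn*, with PF nearer to SAG, whereas *Postn* was far below COR in both, and its ratio of PF to SAG was -0.20, or 0.33 relative to *Gapdh*.

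GP was the long bone reference for each suture. Against PF, 4 of 10 genes passed, compared with 12.0% of 13101 genes, and all 4 were higher in GP, as were 6.24% of all genes. The log2 ratios of PF to GP were -6.04 for *Thbs4*, -2.94 for *Postn*, -1.93 for *Tnn*, and -1.78 for *Tnmd*. Against SAG, 7 of 10 genes passed, compared with 8.66% of 12929 genes, and all 7 were higher in GP, as were 3.86% of all genes. *Thbs4* was at -4.99, *Scx* at -3.78, and *Tnmd* at -3.27 for SAG to GP, and *Postn*, *Tnn*, *Tnc*, and *Thbs3* lay between -2.74 and -2.18. Against COR, 3 of 10 genes passed, compared with 4.40% of 12209 genes. *Thbs4* and *Tnmd* were higher in GP, with log2 ratios of COR to GP of -4.91 and -4.29, and *Tnn* was higher in COR, at 2.76. The 3 comparisons share the GP library, and *Thbs4* and *Tnmd* passed in each of them. Relative to *Gapdh*, only 2 of 10 genes passed between PF and GP, since *Tnmd* was then at -1.31 and *Tnn* at -1.48.

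**Figure D4:**
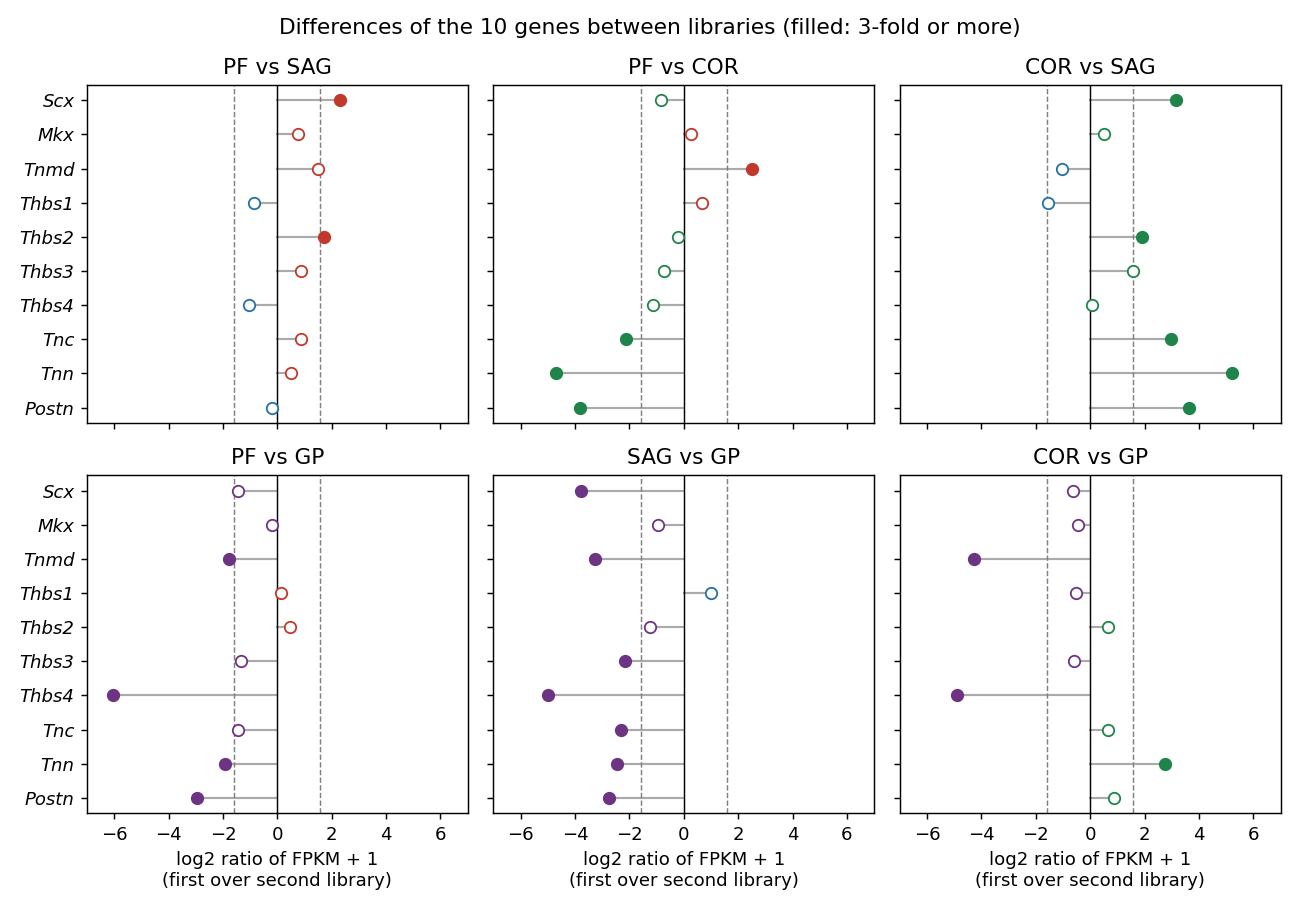
log2 ratios of FPKM + 1 of the 10 genes in the 6 comparisons, first library over second, 1 library per tissue. Filled points are 3-fold or more (dashed lines at 1.58), coloured by the higher library; *Tnn*, *Postn*, and *Tnc* are filled on the COR side against PF and SAG.

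Genes related to these 10 were counted in 5 lists. Of 6 family relatives, *Comp*, the cartilage and tendon pentamer next to *Thbs3* and *Thbs4*, was at 587 FPKM in GP, against 300 in SAG, 12.3 in PF, and 7.35 in COR. It was thus high in SAG, where *Thbs4* was at 2.80 FPKM. *Lect1*, which encodes chondromodulin, the closest relative of tenomodulin, was at 1094 FPKM in SAG, followed by GP with 219, COR with 17.5, and PF with 15.1. *Tgfbi*, the fasciclin-domain relative of periostin, spanned less, at 85.8, 165, 161, and 181 FPKM in PF, SAG, COR, and GP. *Tcf15*, a relative of *Scx*, was highest in GP at 7.51 FPKM and lowest in COR at 0.499.

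All 16 tendon and ligament genes qualified in the comparisons with GP. In GP, 8 were at least 3-fold higher than in SAG and 3 lower, where 8.66% of all genes passed in either direction. Against PF, 6 were higher in GP and 2 lower, beside 12.0% of all genes, and against COR, 7 were higher and 1 lower, beside 4.40%. Of 15 that qualified between PF and SAG, 4 were higher in PF and 2 in SAG, beside 15.7% of all genes. Of 13 between PF and COR, 3 were higher in PF and 1 in COR, beside 11.7%. Of 15 between COR and SAG, 2 were higher in COR and 3 in SAG, beside 9.25%. *Kera*, the proteoglycan keratocan, was high in GP alone, at 104 FPKM, compared with 0.777, 1.35, and 0.737 in PF, SAG, and COR. *Abi3bp*, a matrix protein, was ordered like *Tnmd*, at 113 FPKM in GP, 33.7 in PF, 6.84 in SAG, and 4.12 in COR. *Six2*, a homeobox gene of head mesenchyme and of tendon, was lowest in GP, at 191 FPKM in PF, 96.5 in COR, 77.0 in SAG, and 2.94 in GP. *Egr2*, an early growth response factor of tendon, was at 39.2 FPKM in SAG, against 11.7 in GP, 5.09 in COR, and 0.402 in PF.

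Receptors were counted in the same way. Of 8 thrombospondin receptors, 7 qualified in each comparison. Among these, 2 passed 3-fold between PF and SAG (15.7% of all genes), 1 between PF and COR (11.7%), and 2 between COR and SAG (9.25%). None passed between PF and GP (12.0%) or SAG and GP (8.66%), and 1 passed between COR and GP (4.40%). With 7 genes, 1 call is close to the share of all genes between PF and COR. *Itgb5*, the integrin β5 chain that pairs with CD51, was at 324 FPKM in COR, followed by PF with 303, GP with 105, and SAG with 99.1. *Itgb3*, the β3 chain, reached 5.86 FPKM in COR and 4.85 in GP, and was at 1.2 in PF and 1.01 in SAG. *Lrp1*, the receptor that clears thrombospondins, was highest in PF at 43.7 FPKM, with 23.3 in COR, 17.4 in GP, and 10.6 in SAG. Of 10 tenascin and periostin receptors, of which 8 or 9 qualified, at most 1 passed in any comparison, where 4.40% to 15.7% of all genes did. *Ptprz1*, a phosphatase that binds tenascins, was at 0.617 FPKM in PF and 6.27 in COR, and *Anxa2* was at 512 FPKM in SAG and 1862 in COR.

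Of 9 inducers and partners, *Tgfb1*, a known inducer of tenascin-C and periostin, was at 30.2 FPKM in COR, against 8.92 in GP, 6.0 in SAG, and 2.63 in PF. *Twist1*, a known activator of *Postn*, was at 124 FPKM in COR, with GP at 65.6, PF at 42.1, and SAG at 40.4. Both were highest in COR and next in GP, as were the tenascins and periostin. The other TGF-β ligands of the list were ordered otherwise. *Tgfb2* was at 38.4 FPKM in SAG, 27.3 in GP, 22.4 in PF, and 14.7 in COR. *Tgfb3* was at 121 FPKM in PF, 112 in GP, 94.2 in COR, and 61.5 in SAG. The part of these genes in the tenascin and periostin levels was not tested. *Lox*, the collagen crosslinking enzyme, was at 288 FPKM in COR, with GP at 223, PF at 191, and SAG at 49.1. *Nov* (CCN3), a matricellular protein, was at 603 FPKM in GP, with PF at 324, COR at 109, and SAG at 69.8. All 9 genes qualified throughout. Between PF and SAG 2 passed 3-fold and between PF and COR 1 did, both close to the shares of all genes, 15.7% and 11.7%. Between COR and SAG 3 passed (9.25% of all genes), between PF and GP none (12.0%), and 2 each between SAG and GP (8.66%) and between COR and GP (4.40%).

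The genes whose pattern was most like that of the leading member of each group were found among the 9802 genes that reached 5 FPKM in a library, by Euclidean distance of mean-centred log2(FPKM + 1) values over the 4 libraries. For *Tnmd* they were *Abi3bp* (distance 0.51), *Fxyd2* (0.57), and *Rergl* (0.63). For *Postn* they were *Ibsp* (0.34), *Qpct* (0.35), and *Bmp8a* (0.38). For *Thbs2* they were *Myo1c* (0.12), *Arhgef19* (0.13), and *Slc39a13* (0.16). With 4 points per gene these distances are a description: 93 genes lay within 0.5 of *Thbs2*, compared with 3 for *Postn* and 0 for *Tnmd*. Among the 10 genes themselves, the smallest distances were 1.09 between *Mkx* and *Thbs2*, 1.11 between *Mkx* and *Thbs3*, and 1.18 between *Thbs3* and *Tnc*. These pairs cross the groups. The distance was 1.32 between *Tnc* and *Postn*, 1.45 between *Tnn* and *Postn*, and 2.02 between *Tnc* and *Tnn*. *Tnc* was thus nearer to *Thbs3* than to *Postn* or *Tnn*. Between *Scx* and *Tnmd* the distance was 3.27.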

How the data were processed

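RNA of CD51+;CD200+ cells was measured in 4 libraries, 1 per tissue, grouped by the sample titles. Per the paper's methods and the submitters' processing notes, the authors amplified cDNA with an ultra-low-input kit, sequenced paired ends, mapped them to mm9 with STAR 2.5.1b, and ran Cuffdiff of Cufflinks 2.2.1 with a gene model of Illumina iGenomes. Each deposited table lists FPKM by symbol, and the library normalization of Cuffdiff is not given in the sources used here. A kit of this type does not mark strand.

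The 10 genes, lists, and 3-fold threshold were chosen with earlier results of these data known. Ratios used log2(FPKM + 1), which understates changes of low genes; a gene qualified at FPKM of 1 or more in either library. Of each related list, at most 4 genes past 3-fold that reached 5 FPKM in either library were named, by the size of the log2 ratio. *Tgfbi*, *Tgfb2*, *Tgfb3*, and the single marker genes were added after their values were seen. For the member with the highest mean FPKM of each role group, the 3 nearest genes were named. No p-value was computed. Other pseudocounts, filters, and scalings were tried.

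Gene positions and lengths were those of GENCODE M1 on mm9, with lengths for 80.8% of symbols. Promoter windows came from RefSeq (GRCm38.p6) and held 7 of the 10 genes. All 7 were matched once in mm9, taking the window nearest a GENCODE start. Without fragment counts no interval could be computed. Software was numpy 2.4.6, pandas 2.3.3, and matplotlib 3.10.9 under Python 3.11.15, checked first on simulated tables.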

Additional observations from a re-analysis of the deposited data

How the results depend on the processing

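No paired analysis was possible because no tissue has a second library. The number of the 10 genes at least 3-fold apart stayed within 1.5 times its value in 50 recomputations and left that range in 3. A change from 2 to 3 genes lies within this range. Recomputations that changed only the filter on low values left each ratio as it was, so they could at most drop a gene. With quantile normalization the number was 1 in place of 2 between PF and SAG, with *Thbs2* at a log2 ratio of 1.37. Relative to *Gapdh* it was 2 in place of 4 between PF and GP, with *Tnmd* at -1.31 and *Tnn* at -1.48. *Gapdh* scaling also moved the median of all genes to 0.51 for PF to SAG, 0.29 for PF to COR, and 0.46 for PF to GP. The small ratios of *Postn* for PF to SAG, *Thbs2* for PF to COR, and *Mkx* for PF to GP then became 0.33, 0.03, and 0.26. Between the highest and lowest library the number was 5 without the SAG library, 8 without PF, 8 without COR, and 6 without GP; leaving out a library was chosen after seeing the data. The causes were not tested.

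Values near the threshold crossed it with the processing. *Thbs4* was past 3-fold with a pseudocount of 0.1 between PF and SAG, at -1.63, and between PF and COR, at -1.72. *Thbs3* between COR and SAG was at 1.61 with that pseudocount. *Tnmd* between PF and SAG was at 2.02 relative to *Gapdh*, and *Thbs1* between COR and SAG at -1.70 with quantile normalization. The share of all genes past 3-fold depended on low values. In the order PF and SAG, PF and COR, COR and SAG, PF and GP, SAG and GP, and COR and GP, it was 27.4%, 22.8%, 15.8%, 22.4%, 14.8%, and 8.26% with a pseudocount of 0.1. For genes that reached 1 FPKM in both libraries it was 8.76%, 5.88%, 5.56%, 5.65%, 4.67%, and 2.5%. Between the highest and lowest library these shares were 40% and 14.9%. The depth of PF, the lowest of the 4, limits values near 1 FPKM most.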

Other observations

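Some ratios within a library compare a gene with its relative and so do not depend on the scaling of libraries. The *Postn* level was 1.94 times that of *Tgfbi* in PF, 1.16 times in SAG, and 14.7 and 7.08 times in COR and GP. The *Thbs4* level was 0.409 of that of *Comp* in COR, 0.204 in GP, 0.0682 in PF, and 0.00935 in SAG. The *Tnmd* level was 26.6 times that of *Lect1* in PF, 3.98 times in COR, 6.31 times in GP, and 0.130 of it in SAG. *Scx* exceeded *Mkx* by 2.61 times in PF, 5.57 times in COR, and 6.36 times in GP, and was at 0.864 of it in SAG.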
